A study of Mus musculus with 12 samples.

Results

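The NKG2 and CD94 lectin receptors of natural killer (NK) cells were followed as 7 genes, Klrc1, Klrc2, Klrd1, Klrk1, Klre1, Klri1 and Klri2, chosen by name for their family and matched by Ensembl identifier among the 37991 genes of the deposited expression table. All 7 passed the filter on low values (3 or more libraries at an FPKM of at least 1), as did 12384 genes in all. RNA was sequenced from NK cells sorted from mouse bone marrow as NK1.1+ CD49b+ cells, on the C57Bl/6 background, with 3 libraries in each of 4 groups. The study asked what the loss of the transcriptional regulators Id2 and TCF-1 (the product of Tcf7), singly and together, does to NK cells.

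The Id2KO group carried Ncr1Cre and Id2F/F alleles, the Tcf1KO group Ncr1Cre and Tcf7F/F alleles, and the DKO group Ncr1Cre with both Id2F/F and Tcf7F/F alleles. The Ctrl group carried floxed alleles without Cre, either Id2F/F alone or Id2F/F with Tcf7F/F, and which library held which was not given in the sources used here. The Cre transgene was therefore present in all Id2KO, Tcf1KO and DKO samples and in no Ctrl sample, so that its presence and the gene deletions cannot be told apart in any comparison with Ctrl. Ncr1 encodes NKp46, a receptor of NK cells and of some other innate lymphoid cells, so deletion begins only once a cell has turned Ncr1 on.

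CD94, the product of Klrd1, pairs on the cell surface with a member of the NKG2 family. With NKG2A, from Klrc1, it forms an inhibitory receptor, and with NKG2C or NKG2E, from Klrc2 and Klrc3, an activating one. These receptors read the nonclassical class I molecule Qa-1 on other cells. NKG2D, from Klrk1, is an activating receptor that works as a homodimer, without CD94, and binds stress-induced ligands. KLRE1 is a partner chain too: in the rat it pairs with KLRI1 into an inhibitory receptor and with KLRI2 into an activating one. Id2 holds E proteins in check, which bind E-box sequences, and TCF-1 is a DNA-binding factor of the Wnt pathway.

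Levels are given as the deposited FPKM, in which the fragments of a gene are divided by its length and by the size of the library. Library sizes worked back from these values ran between 13977524 and 20209587 reads. The targeted gene Id2 lay between 17.1 and 19.2 FPKM in Id2KO, between 102 and 126 FPKM in Tcf1KO, between 36.8 and 48.8 FPKM in DKO and between 124 and 170.0 FPKM in Ctrl libraries. Tcf7 lay between 80.9 and 92.1 FPKM in Id2KO, between 29.6 and 38.0 FPKM in Tcf1KO, between 53.9 and 73.3 FPKM in DKO and between 37.7 and 46.5 FPKM in Ctrl libraries. A whole-gene value of Tcf7 can also count exons outside a floxed segment and so did not check the Tcf1KO and DKO labels. Why Tcf7 stood above every Ctrl library in DKO was not tested. The summed FPKM of 6 NK identity markers, Klrb1c and Itga2 (the genes of the sorted antigens), Ncr1, Eomes, Tbx21 and Il2rb, ran from 600.4 to 890.4 in Id2KO, 550 to 587 in Tcf1KO, 610 to 692 in DKO and 706 to 876 in Ctrl libraries. T and NKT cell markers, 12 of 13 listed genes being in the table and none at 0 in any group, summed to between 1294 and 1752 FPKM in Id2KO, 1417 and 1902 FPKM in Tcf1KO, 1852 and 2264 FPKM in DKO and 978 and 1159 FPKM in Ctrl libraries. Markers of mature NK cells (10 genes) summed to between 87.1 and 116 FPKM in Id2KO, 268 and 342 FPKM in Tcf1KO, 105 and 201 FPKM in DKO and 296 and 345 FPKM in Ctrl libraries. Myeloid and neutrophil markers (12 genes, Elane at 0 in Id2KO) summed to between 62.8 and 1026 FPKM in Id2KO, 1187 and 4188 FPKM in Tcf1KO, 322 and 784 FPKM in DKO and 881 and 3586 FPKM in Ctrl libraries. Markers of immature NK cells (8 genes) summed to between 374 and 412 FPKM in Id2KO, 261 and 279 FPKM in Tcf1KO, 301 and 371 FPKM in DKO and 244 and 260.4 FPKM in Ctrl libraries. B cell markers (6 genes) summed to between 352 and 414 FPKM in Id2KO, 152 and 207 FPKM in Tcf1KO, 252 and 282 FPKM in DKO and 165 and 249 FPKM in Ctrl libraries. Most of the B cell sum was 1 gene, Ighm, which averaged 383 FPKM in Id2KO and 190 FPKM in Ctrl libraries. Cd79a averaged 1.56 and 0.944 FPKM, and Cd79b 1.64 and 1.38 FPKM, in the same 2 groups. Basophil and mast cell markers (8 genes) lay between 15.6 and 94.7 FPKM in Id2KO, 51.1 and 752 FPKM in Tcf1KO, 56.7 and 593 FPKM in DKO and 167 and 631 FPKM in Ctrl libraries, and erythroid markers (10 genes) between 168 and 1929, 1354 and 3557, 452 and 2734, and 772 and 4821 FPKM in the same order of groups. In Id2KO libraries the mature NK and the basophil and mast cell sums lay below those of every Ctrl library. The immature NK, the T and NKT cell and the B cell sums of Id2KO lay above those of every Ctrl library. T and NKT cells can carry NKG2 and CD94 receptors as well, and the part of these markers in the results was not tested.

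All 7 receptor genes lay in 1 stretch of chromosome 6 that also holds Klrc3. On the GRCm38 build the 8 genes spanned chr6:129577905-129740484, or 162.58 kb of the NK gene complex. Klre1 (chr6:129577905-129585827) and Klrd1 (chr6:129591782-129598775) were annotated on the plus strand. Klrk1 (chr6:129610323-129623864), Klrc3 (chr6:129639064-129643337), Klrc2 (chr6:129647496-129660689), Klrc1 (chr6:129666015-129678973), Klri1 (chr6:129697218-129717132) and Klri2 (chr6:129729041-129740484) followed on the minus strand. The plot of FPKM by library shows each gene's level in all 12 libraries.

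**Figure D1:**
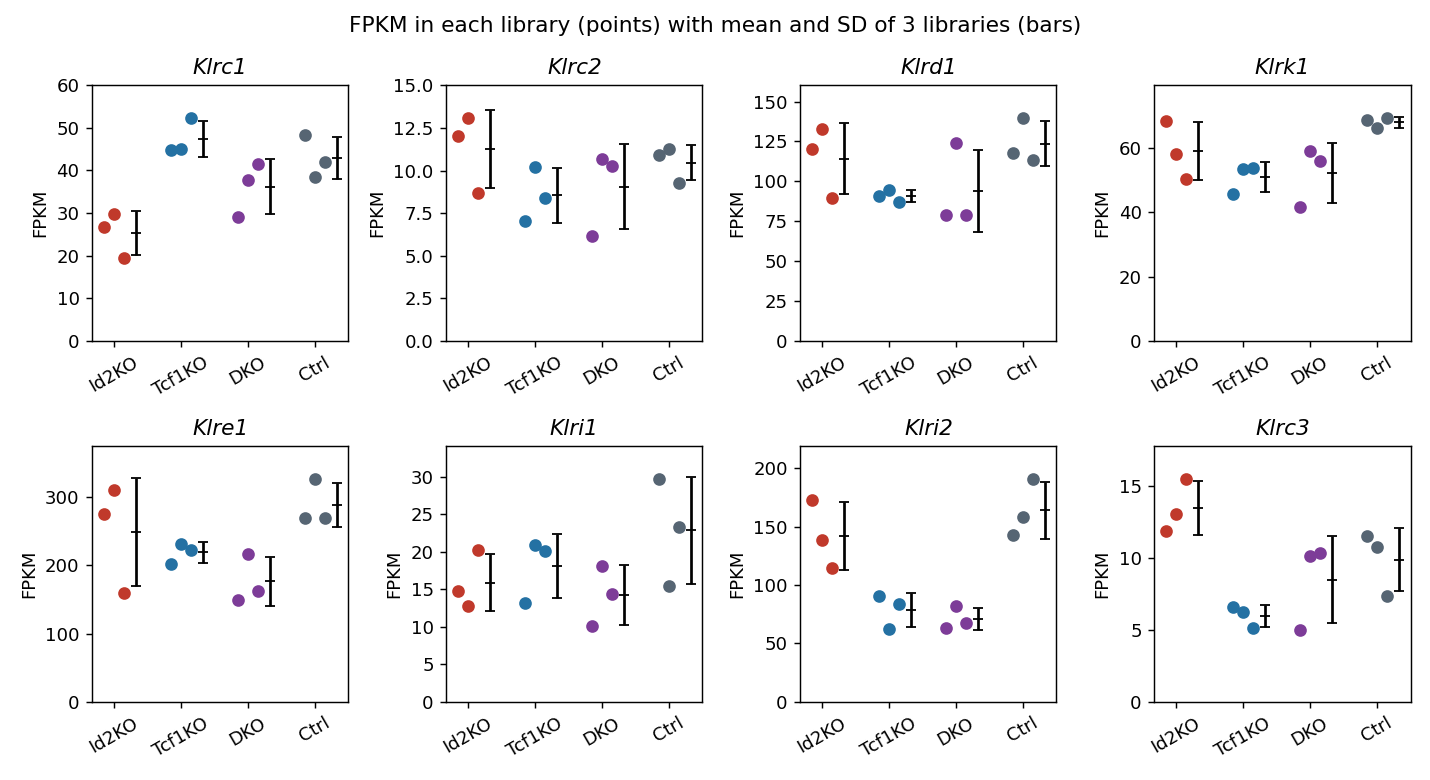
FPKM of the 7 receptor genes and of Klrc3 in each library (points, 3 per group) with the group mean (line) and SD (bars), each gene on its own axis in FPKM. Klri2 sits between 62.1 and 90.7 FPKM in the Tcf1KO and DKO libraries and at 115 FPKM or above in every Id2KO and Ctrl library; Klrc1 is at 29.6 FPKM or below in the 3 Id2KO libraries.

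Klri2, Klre1, Klrd1 and Klrk1 were abundant transcripts of these cells. In Ctrl libraries their mean levels were above those of 99.1%, 99.5%, 98.7% and 97.5% of the tested genes, in that order. Klrc1 was above 95.6%, Klri1 above 90.7% and Klrc2 above 79.0% of them. FPKM between genes rest on the gene lengths used for the deposited values, which came out at 10834 bases for Klrc2 and 4166 bases for Klrc1. Klri1 had the fewest reads, between 127 and 403 per library, and every other member had at least 1003 reads in each library.

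No member passed limma's test, on log2(FPKM + 1) adjusted by Benjamini-Hochberg across the 12384 genes at a threshold of 0.05, in any comparison. The size of difference this design could resolve was limited: the 95% interval of a member's log2 fold change reached a median of 0.44 to either side. That interval is for a single gene, without adjustment over the 12384 genes, and is not the difference that a call required. Klri2, at -1.06 in Tcf1KO against Ctrl, was not called. Fold changes below are on the log2(FPKM + 1) scale, which slightly understates those of low genes. In bulk RNA, fewer cells of a type and less RNA per cell cannot be told apart. The 3 comparisons with Ctrl share the same 3 Ctrl libraries.

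The levels of Klrc1, which encodes the inhibitory chain NKG2A, were lowest in Id2KO NK cells. Klrc1 had 26.6, 29.6 and 19.5 FPKM in Id2KO libraries, against 48.3, 38.5 and 42.0 FPKM in Ctrl libraries. All 3 Id2KO libraries lay below all 3 Ctrl libraries. The Id2KO mean was 25.2 ± 5.21 FPKM and the Ctrl mean 42.9 ± 4.95 FPKM (SD, n = 3 each), with a log2 fold change of -0.76 ± 0.19 (SE) and an interval of -1.17 to -0.35. Its adjusted p by limma was 0.197, which missed the threshold. Klrc1 had 44.7, 45.0 and 52.2 FPKM in Tcf1KO libraries and 29.1, 37.8 and 41.6 FPKM in DKO libraries, and both groups overlapped Ctrl. The log2 fold change against Ctrl was 0.14 ± 0.19 in Tcf1KO (adjusted p = 0.999 by limma) and -0.25 ± 0.19 in DKO (adjusted p = 0.749 by limma). The DKO mean of 36.2 ± 6.37 FPKM stood above the Id2KO mean, with a log2 fold change of 0.51 ± 0.19 for DKO against Id2KO (interval 0.10 to 0.92, adjusted p = 0.349 by limma), and the lowest DKO library lay within the Id2KO range. Against Tcf1KO, with a mean of 47.3 ± 4.25 FPKM, DKO libraries were all lower, with a log2 fold change of -0.39 ± 0.19 (adjusted p = 0.755 by limma). Without the third Id2KO, the third DKO and the second Ctrl library, those of lowest array weight in limma, Klrc1 stood at 0.23 in DKO against Id2KO (adjusted p = 0.616) and at -0.43 in DKO against Ctrl (adjusted p = 0.577).

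Klrc2, which encodes the activating chain NKG2C, had overlapping levels in all 4 groups. It had 12.03, 13.1 and 8.68 FPKM in Id2KO, 7.01, 10.2 and 8.38 FPKM in Tcf1KO, 6.18, 10.7 and 10.3 FPKM in DKO and 10.9, 11.2 and 9.28 FPKM in Ctrl libraries. Against Ctrl, Id2KO gave a log2 fold change of 0.08 ± 0.23, Tcf1KO one of -0.28 ± 0.23 and DKO one of -0.22 ± 0.23, with adjusted p by limma of 0.95, 0.999 and 0.835 in that order. The Id2KO value was -0.026 without the second Id2KO library and the DKO value 0.0045 without the first DKO library. Klrc3, the neighbouring NKG2E gene, had 11.8, 13.04 and 15.5 FPKM in Id2KO libraries, all above the 11.5, 10.7 and 7.36 FPKM of Ctrl libraries. Its log2 fold change for Id2KO against Ctrl was 0.43 ± 0.26 (adjusted p = 0.648 by limma). In Tcf1KO libraries Klrc3 had 6.56, 6.25 and 5.10 FPKM, all below Ctrl, with a log2 fold change of -0.62 ± 0.26 (adjusted p = 0.991 by limma). In DKO libraries it had 5.0, 10.1 and 10.3 FPKM, which overlapped Ctrl.

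The Klrc genes are near copies of one another, which bears on how reads are shared out among them. The ends of their coding sequences, read from GENCODE M21 transcripts on GRCm38, show where the copies differ and where they do not, in windows of 1 read length. The first 76 coding bases are shown 5′ to 3′, compared position by position without gaps, with capitals at each base that differs from Klrc2.
Klrc1: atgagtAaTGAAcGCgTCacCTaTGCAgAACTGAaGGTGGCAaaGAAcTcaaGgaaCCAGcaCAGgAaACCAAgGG
Klrc2: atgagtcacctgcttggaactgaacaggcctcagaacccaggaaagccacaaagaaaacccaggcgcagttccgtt
Klrc3: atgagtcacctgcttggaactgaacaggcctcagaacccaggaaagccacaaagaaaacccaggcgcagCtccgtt
Klrc1 differed from Klrc2 at 48 of these bases and Klrc3 at 1. The last 76 coding bases, which end the lectin domain, are shown in the same way.
Klrc1: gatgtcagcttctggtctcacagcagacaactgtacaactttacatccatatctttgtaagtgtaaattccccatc
Klrc2: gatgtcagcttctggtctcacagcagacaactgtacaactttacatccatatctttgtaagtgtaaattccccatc
Klrc3: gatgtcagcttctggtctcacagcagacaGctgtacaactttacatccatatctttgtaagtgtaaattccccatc
Klrc1 and Klrc2 were identical over the last window, and Klrc3 differed from them at 1 base. Over all annotated transcripts, 24.5% of the 76-base windows of Klrc1, 11.2% of those of Klrc2 and 23.1% of those of Klrc3 also occurred in another of these genes. The share was 2.49% for Klri1 and 0.834% for Klri2, and it was 0 for Klrd1, Klrk1 and Klre1. How reads that match more than 1 gene were counted, and whether counting used the strand, is not given in the sources used here, so levels of the 3 Klrc genes are uncertain to that extent.

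The balance between the inhibitory and the activating CD94 partner was taken as the share of Klrc1 in the summed FPKM of Klrc1 and Klrc2, a single value per library. The share was 68.9%, 69.4% and 69.2% in Id2KO libraries, against 81.6%, 77.4% and 81.9% in Ctrl libraries. The Id2KO values lay within 1 percentage point of one another, although the third Id2KO library had the lowest Klrc1 and Klrc2 of its group. Counting alone gave a CV of 2.66% for Klrc1 and 2.47% for Klrc2 at their lowest Id2KO read numbers. The SD of these 3 close values may therefore understate the spread between libraries. The means were 69.1% ± 0.276 in Id2KO and 80.3% ± 2.51 in Ctrl libraries (SD, n = 3 each), a difference of -11.1 percentage points. By an exact two-sided permutation test the p was 0.1, the smallest that 3 against 3 can give, and 0.25 after Benjamini-Hochberg adjustment over 5 pairs of groups. DKO libraries had 82.5%, 78.0% and 80.2%, with a mean of 80.2% ± 2.26. The DKO mean was 11.1 percentage points above that of Id2KO, again without overlap and with the smallest possible exact p of 0.1 (adjusted 0.25), and -0.073 points from that of Ctrl, where the exact p was 1.0. Tcf1KO libraries had 86.4%, 81.5% and 86.2%, a mean of 84.7% ± 2.78, which was 4.4 points above Ctrl (exact p = 0.3, adjusted 0.375). DKO stood -4.47 points from Tcf1KO (exact p = 0.2, adjusted 0.333). In reads, which are not divided by gene length, the Klrc1 share was 46.3% ± 0.321 in Id2KO, 68.1% ± 4.57 in Tcf1KO, 61.0% ± 3.4 in DKO and 61.1% ± 3.71 in Ctrl libraries.

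The ratio of Klrc1 to Klrd1 FPKM, chosen after its values were seen and given without a test, sets NKG2A beside its partner chain. It was 0.221, 0.223 and 0.217 in Id2KO, 0.493, 0.475 and 0.5995 in Tcf1KO, 0.370, 0.305 and 0.525 in DKO and 0.409, 0.276 and 0.370 in Ctrl libraries. The Id2KO libraries had the lowest 3 ratios of the 12, and the Tcf1KO libraries all stood above the Ctrl libraries.

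**Figure D2:**
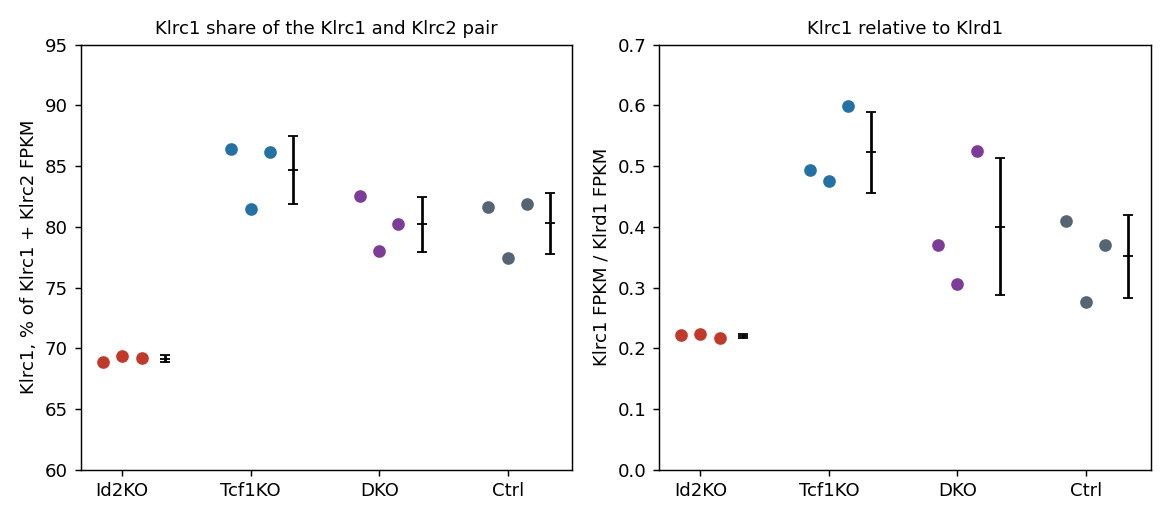
Left, Klrc1 as a percentage of the summed FPKM of Klrc1 and Klrc2 per library, and right, the ratio of Klrc1 to Klrd1 FPKM per library. Points are libraries (3 per group), lines are group means and bars are SD. The Id2KO libraries lie between 68.9% and 69.4% on the left, below the 77.4% of the lowest Ctrl library, and between 0.217 and 0.223 on the right.

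The sequence just before the start of the Klrc1 and Klrc2 genes is shown because the balance of these neighbours was lowest in Id2KO libraries and because E proteins and TCF-1 bind known short sequences. RefSeq (GRCm38.p6) gave entries for 5 of the 7 members, and the 250 bases before the start are printed 5′ to 3′ on the strand of the gene, with the letters CANNTG, the E-box, in capitals.
Klrc1, chr6:129678974-129679223, minus strand: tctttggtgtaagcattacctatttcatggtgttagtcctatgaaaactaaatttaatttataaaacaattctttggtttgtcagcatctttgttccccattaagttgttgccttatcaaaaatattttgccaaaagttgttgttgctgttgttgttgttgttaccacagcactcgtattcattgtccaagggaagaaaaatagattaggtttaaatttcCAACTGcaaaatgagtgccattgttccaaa
Klrc2, chr6:129660597-129660846, minus strand: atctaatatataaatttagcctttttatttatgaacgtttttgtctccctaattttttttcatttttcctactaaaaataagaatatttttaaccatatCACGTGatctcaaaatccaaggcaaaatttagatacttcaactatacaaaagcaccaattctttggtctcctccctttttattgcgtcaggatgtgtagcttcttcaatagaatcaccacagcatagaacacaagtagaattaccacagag
The Klrc1 window held CAACTG at position -30 from the start and the Klrc2 window held CACGTG at position -151. From another Klrc2 start that RefSeq gave, the same CACGTG lay at position -191. The E-box was not particular to this pair, as the windows of Klre1, Klrk1 and Klri1 held 1 CANNTG each. CANNTG occurs on both strands by its own symmetry, and 66.2% of 32851 mouse promoter windows of the same length held it. The E-box form CAGCTG, held by 13% of all windows, was searched on both strands and was not in the windows of Klrc1, Klrc2, Klrk1, Klre1 or Klri1. The same was true of the form CAGGTG, held by 17.2% of all windows. The letters CTTTGA, which stand in the sequence that TCF-1 binds and are no form of the E-box, were searched on both strands and were held by 13.8% of all windows and by none of those of the 5 genes. The match is a description of letters and names no binding site.

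Klrd1, which encodes CD94, the chain that all NKG2A, NKG2C and NKG2E receptors need, had 120.4, 133 and 89.7 FPKM in Id2KO, 90.6, 94.7 and 87.0 FPKM in Tcf1KO, 78.7, 124 and 79.2 FPKM in DKO and 118, 139.5 and 113 FPKM in Ctrl libraries. The 3 Tcf1KO libraries were tightly grouped below every Ctrl library. In DKO the libraries at 78.7 and 79.2 FPKM lay below every Tcf1KO library, and the library at 124 FPKM lay within the Ctrl range. The Tcf1KO mean was 90.8 ± 3.84 FPKM and the Ctrl mean 124 ± 13.9 FPKM (SD, n = 3 each), with a log2 fold change of -0.44 ± 0.20 (adjusted p = 0.999 by limma). The log2 fold change against Ctrl was -0.42 ± 0.20 in DKO (adjusted p = 0.547 by limma) and -0.13 ± 0.20 in Id2KO (adjusted p = 0.90 by limma).

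Klrk1, which encodes NKG2D, was even among the Ctrl libraries, at 68.7, 66.1 and 69.3 FPKM. It had 68.3, 58.2 and 50.4 FPKM in Id2KO, 45.6, 53.5 and 53.9 FPKM in Tcf1KO and 41.6, 59.2 and 56.1 FPKM in DKO libraries. Every Tcf1KO and DKO library lay below the lowest Ctrl library, whereas the highest Id2KO library lay within the Ctrl range. The means were 51.0 ± 4.68 FPKM in Tcf1KO, 52.3 ± 9.4 FPKM in DKO and 68.0 ± 1.7 FPKM in Ctrl libraries (SD, n = 3 each). The log2 fold change against Ctrl was -0.41 ± 0.16 in Tcf1KO (adjusted p = 0.977 by limma), -0.39 ± 0.16 in DKO (adjusted p = 0.498 by limma) and -0.21 ± 0.16 in Id2KO (adjusted p = 0.74 by limma).

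Klre1, the partner chain of the KLRI receptors, had 276, 311 and 159.9 FPKM in Id2KO, 202, 232 and 223 FPKM in Tcf1KO, 149.5, 217 and 163 FPKM in DKO and 270.1, 327 and 269 FPKM in Ctrl libraries. All Tcf1KO and all DKO libraries lay below the Ctrl libraries, and 1 Id2KO library did too while the other two lay within the Ctrl range. The DKO mean of 176 ± 35.7 FPKM and the Ctrl mean of 289 ± 33 FPKM (SD, n = 3 each) gave a log2 fold change of -0.72 ± 0.23, with an interval of -1.24 to -0.20 (adjusted p = 0.343 by limma). The log2 fold change against Ctrl was -0.39 ± 0.23 in Tcf1KO (adjusted p = 0.999 by limma) and -0.26 ± 0.23 in Id2KO (adjusted p = 0.787 by limma). DKO stood at -0.46 ± 0.23 against Id2KO and -0.33 ± 0.23 against Tcf1KO on the log2 scale, with adjusted p by limma of 0.512 and 0.868.

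Klri2, which encodes the activating partner of KLRE1, showed the largest differences of the 7 genes from Ctrl in the Tcf1KO and DKO groups. It had 90.7, 62.1 and 83.3 FPKM in Tcf1KO and 63.2, 81.9 and 67.6 FPKM in DKO libraries, against 143, 158 and 191 FPKM in Ctrl libraries. The highest Tcf1KO or DKO library was well below the lowest Ctrl library. In both groups the summed T and NKT cell markers stood above, and the summed NK identity markers below, those of every Ctrl library. Of the 6 NK identity genes, 5 had negative log2 fold changes against Ctrl in each group, to unequal degrees. Ncr1 averaged 64.8 FPKM in Tcf1KO, 78.1 FPKM in DKO and 192 FPKM in Ctrl libraries. Tbx21 went the other way in Tcf1KO, averaging 33.7 FPKM there and 28.1 FPKM in Ctrl libraries. The T and NKT cell sum stood above every Ctrl library in Id2KO too, at 1294 to 1752 FPKM, but its genes were mixed there. Of the 12 genes summed, 5 had negative log2 fold changes in Id2KO against Ctrl, with a median of 0.057. The medians were 1.05 in Tcf1KO and 0.98 in DKO, with 2 and 1 of the genes negative in that order. The part of these markers in the difference was not tested. Id2KO libraries had 173, 138 and 115 FPKM of Klri2, and overlapped Ctrl. The means were 142 ± 29.3 FPKM in Id2KO, 78.7 ± 14.8 FPKM in Tcf1KO, 70.9 ± 9.74 FPKM in DKO and 164 ± 24.5 FPKM in Ctrl libraries (SD, n = 3 each).

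Against Ctrl, the log2 fold change of Klri2 was -1.20 ± 0.20 in DKO, with an interval of -1.63 to -0.76, and -1.06 ± 0.20 in Tcf1KO, with an interval of -1.50 to -0.62. The adjusted p by limma was 0.0504 in DKO and 0.195 in Tcf1KO, so neither passed. In DKO it lay just outside the threshold and passed it under 5 of 25 other settings, among them the fit without the third Id2KO library (adjusted p = 0.0403), with adjusted p by limma between 0.0216 and 0.292 over all of them. Leaving out the 3 libraries of lowest array weight (the third Id2KO, the third DKO and the second Ctrl library) gave a log2 fold change of -1.19 in DKO against Ctrl, with an adjusted p of 0.292 by limma. In Id2KO the log2 fold change of Klri2 was -0.22 ± 0.20 (adjusted p = 0.797 by limma). DKO against Id2KO gave -0.98 ± 0.20, with no overlap of libraries (interval -1.42 to -0.54, adjusted p = 0.111 by limma), and DKO against Tcf1KO -0.14 ± 0.20, with overlap (interval -0.58 to 0.30, adjusted p = 0.944 by limma). In the order of the group means of Klri2, the step between Id2KO and Tcf1KO was the only one of the 7 genes at which neighbouring groups did not overlap.

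Klri1, which encodes the inhibitory partner of KLRE1, was the least abundant of the KLRE1 family, and its 3 Ctrl libraries were spread widely. It had 14.7, 12.8 and 20.2 FPKM in Id2KO, 13.2, 20.9 and 20.02 FPKM in Tcf1KO, 10.1, 18.1 and 14.4 FPKM in DKO and 29.7, 15.5 and 23.3 FPKM in Ctrl libraries. Every group overlapped Ctrl. Against Ctrl, Id2KO gave a log2 fold change of -0.47 ± 0.29, Tcf1KO one of -0.30 ± 0.29 and DKO one of -0.64 ± 0.29, with adjusted p by limma of 0.651, 0.999 and 0.529 in that order.

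The ratio of Klri2 to Klre1 FPKM, also chosen after its values were seen, ran from 0.444 to 0.718 in Id2KO, 0.268 to 0.449 in Tcf1KO, 0.377 to 0.423 in DKO and 0.484 to 0.708 in Ctrl libraries. Tcf1KO and DKO libraries all lay below the lowest Ctrl library.

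Read over the 7 genes, the directions of the differences from Ctrl were mostly downward. In Id2KO against Ctrl 6 of 7 log2 fold changes were negative, with a median of -0.22, and 0 of 7 genes passed limma's test, where 0.178% of all tested genes passed. Klrd1 and Klre1 turned to 0.037 and 0.027 there without the third Id2KO library. The libraries of 1 gene, Klrc1, did not overlap, lower in Id2KO, where 6.75% of all tested genes did so. In Tcf1KO against Ctrl 6 of 7 were negative, with a median of -0.39, and 0 of 7 passed limma's test, where 0.0% of tested genes passed. Across all genes 594 had an unadjusted p under 0.05 in that comparison, which was 4.8% of those tested, and limma's voom on reads called 4. The libraries of 4 genes, Klrd1, Klrk1, Klre1 and Klri2, did not overlap, lower in Tcf1KO, where 5.73% of tested genes did so. In DKO against Ctrl all 7 were negative, with a median of -0.42, and 0 of 7 passed limma's test, where 0.145% of tested genes passed. Klrk1, Klre1 and Klri2 did not overlap there, lower in DKO, where 7.27% of tested genes did so. The median over all tested genes lay within 0.01 of 0 in each of these comparisons. The 7 genes share a chromosomal stretch and the same libraries, so that they are not independent of one another.

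**Figure D3:**
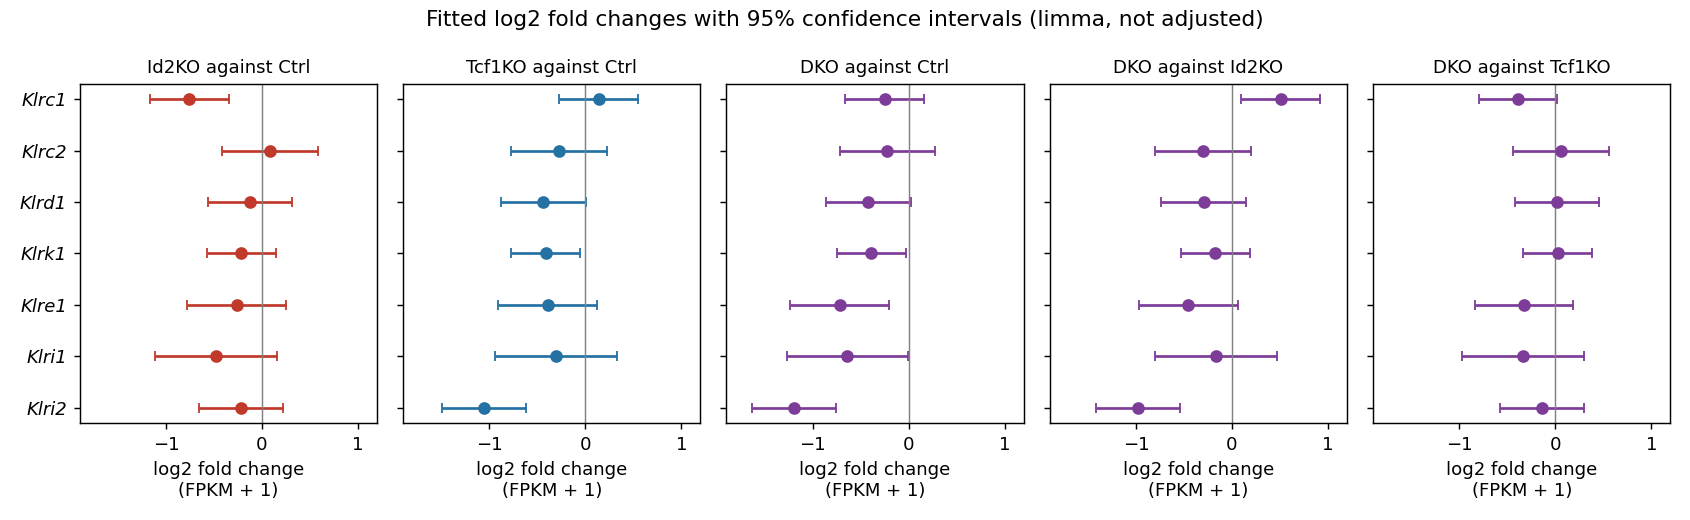
Log2 fold change on the log2(FPKM + 1) scale of each of the 7 genes in 5 comparisons (points; bars, 95% interval from limma; n = 3 libraries per group). Klri2 in DKO against Ctrl, at -1.20, and in Tcf1KO against Ctrl, at -1.06, lies farthest below 0, and Klrc1 has its lowest value, -0.76, in Id2KO against Ctrl.

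Within the double knockout, 0 of 7 genes passed limma's test in DKO against Id2KO, where 0.121% of tested genes passed, and 0 of 7 in DKO against Tcf1KO, where 0.0565% did. Log2 fold changes ran between -0.98 and 0.51 in DKO against Id2KO and between -0.39 and 0.05 in DKO against Tcf1KO. Klri2 did not overlap, lower in DKO than in Id2KO, where 8.32% of tested genes did so. Klrc1 did not overlap, lower in DKO than in Tcf1KO, where 6.9% did. Id2 itself was unequal, at 36.8 to 48.8 FPKM in DKO and 17.1 to 19.2 FPKM in Id2KO libraries. The part of that inequality in DKO against Id2KO and in the interaction was not tested. The interaction sets the difference of DKO from Tcf1KO against that of Id2KO from Ctrl, and so asks whether the loss of Id2 acted differently without TCF-1. It was between -0.06 and 0.37 for the 7 genes, none of which passed limma's test. For Klrc1 it was 0.37 ± 0.26 (adjusted p = 0.927 by limma), or 0.17 without the 3 libraries of lowest array weight, and for Klri2 0.08 ± 0.28 (adjusted p = 0.991 by limma). Over all genes the interaction called 0 by limma, or 0.0%, and 0 by voom, and 735 genes, or 5.94%, had an unadjusted p under 0.05.

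Along the chromosome, the genes with the largest differences in DKO against Ctrl stood at both ends of the stretch. Klre1 at one end had -0.72 ± 0.23 and Klri2 at the other end had -1.20 on the log2 scale. Between them Klrd1 had -0.42, Klrk1 -0.39, Klrc3 -0.23, Klrc2 -0.22, Klrc1 -0.25 and Klri1 -0.64 ± 0.29. The value of the interior gene Klri1 was thus near that of Klre1. In Id2KO against Ctrl the lowest value was that of Klrc1, in the interior of the stretch, with Klrc2 next to it at 0.08.

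**Figure D4:**
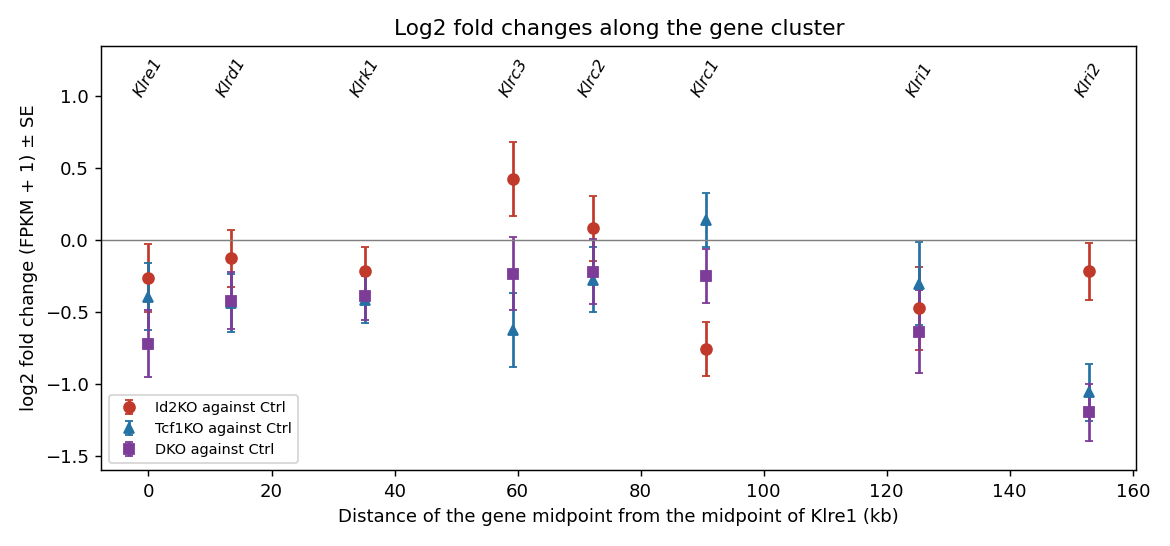
Log2 fold change (points; bars, ± SE) of the 8 genes against the distance of the gene's midpoint in kb from the midpoint of Klre1, for the comparisons with Ctrl. Klri2, 153 kb from Klre1, has the lowest values in DKO (-1.20) and Tcf1KO (-1.06), and Klrc1, 90.6 kb away, the lowest in Id2KO (-0.76).

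The receptors of this stretch varied together between libraries of a group, to differing degrees. After the group means were taken out, the Pearson correlation of log2(FPKM + 1) between members ran from -0.22 to 0.90 over 21 pairs, with a median of 0.44, and 18 pairs were positive. Klrd1 and Klre1 had the highest, 0.90. These are descriptions over 12 libraries that differ in depth and in their sums of cell type markers, also within a group. The part of either in the correlations was not tested.

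The genes whose pattern over the 12 libraries was most like each member, by Pearson correlation of log2(FPKM + 1), were as follows. Klri2 was most like Eomes (r = 0.95, Spearman's rho = 0.95), a T-box factor of NK cells, followed by Vegfc (r = 0.94) and Adamts14 (r = 0.90). Eomes had 28.5, 25.1 and 26.4 FPKM in Tcf1KO and 24.3, 25.6 and 27.1 FPKM in DKO libraries, against 45.4, 42.2 and 54.4 FPKM in Ctrl libraries, and 46.6, 43.0 and 29.9 FPKM in Id2KO libraries. Klrk1 was most like Ncr1 (r = 0.87, rho = 0.92), the gene whose regulatory sequence drives Cre here, followed by Gvin1 (r = 0.87) and Nipbl (r = 0.86). Ncr1 had 138, 148 and 85.8 FPKM in Id2KO, 60.3, 63.7 and 70.4 FPKM in Tcf1KO and 62.4, 99.1 and 72.9 FPKM in DKO libraries, against 203, 168 and 204 FPKM in Ctrl libraries. Every library with Cre was below every Ctrl library for Ncr1.

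Klrc1 was most like Dock5 (r = 0.94), Il18rap (r = 0.92), a chain of the interleukin-18 receptor, and Hnrnpll (r = 0.89). Klrc2 was most like Ms4a4b (r = 0.93) and Bloc1s2 (r = 0.89). Klrd1 was most like Trim5 (r = 0.92), Ccr2 (r = 0.91), a chemokine receptor, and Klrb1c (r = 0.89), which encodes the NK1.1 antigen used in the sort. Klre1 was most like Prr5l (r = 0.93), Sept6 (r = 0.91) and Klrb1c (r = 0.91). Klri1, with the fewest reads, had the weakest leading partners, Cemip2 (r = 0.84), Chaf1a (r = 0.83) and Cdk13 (r = 0.82). These likenesses carry no p and were the highest of 12384 genes searched.

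**Figure D5:**
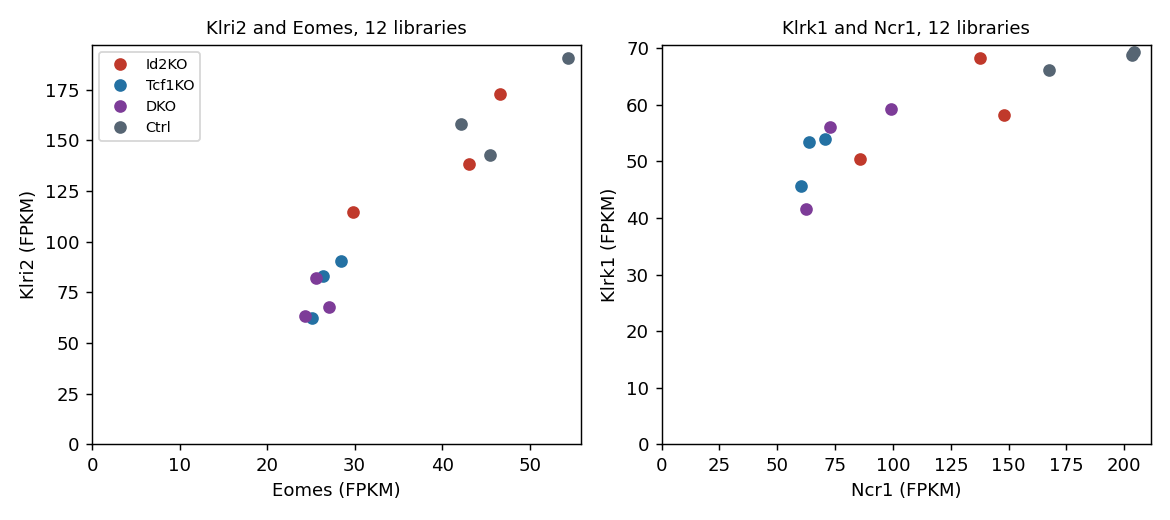
Left, Klri2 against Eomes and right, Klrk1 against Ncr1, in FPKM, 1 point per library, coloured by group. On the left the Tcf1KO and DKO libraries lie at or below 28.5 FPKM of Eomes and 90.7 FPKM of Klri2, under all other libraries; on the right the 3 Ctrl libraries lie at 168 FPKM of Ncr1 or above, over all others.

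None of the genes that relay these receptors' signals passed limma's test. Of 20 listed adaptor and signalling genes 18 were tested, and 0 rose and 0 fell in each of the 6 comparisons. Tyrobp, which encodes DAP12, the adaptor of CD94-NKG2C, averaged 1009 ± 264 FPKM in Id2KO, 759 ± 113 FPKM in Tcf1KO, 729 ± 164 FPKM in DKO and 1267 ± 198 FPKM in Ctrl libraries (SD, n = 3 each). Its log2 fold change against Ctrl was -0.74 ± 0.23 in Tcf1KO (adjusted p = 0.712 by limma) and -0.81 ± 0.23 in DKO (adjusted p = 0.261 by limma). Plcg1, which encodes a phospholipase of receptor signalling and had the smallest p of the list in DKO against Ctrl, averaged 2.22 ± 0.93 FPKM in DKO and 0.683 ± 0.207 FPKM in Ctrl libraries, with a log2 fold change of 0.91 ± 0.25 (adjusted p = 0.246 by limma), or 1.53 with a pseudocount of 0.1 and 1.68 by voom. Hcst, which encodes DAP10, the adaptor of NKG2D, averaged 93.1 ± 29.1 FPKM in Id2KO, 86.5 ± 10.4 FPKM in Tcf1KO, 98.7 ± 10.5 FPKM in DKO and 77.2 ± 22.1 FPKM in Ctrl libraries.

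Of 9 listed ligand genes 6 were tested, and 0 rose and 0 fell in any comparison. H2-T23, which encodes Qa-1, the ligand of the CD94-NKG2 receptors, averaged 7.58 ± 1.36 FPKM in Id2KO, 7.32 ± 1.001 FPKM in Tcf1KO, 7.02 ± 1.405 FPKM in DKO and 7.62 ± 2.23 FPKM in Ctrl libraries. Among the NKG2D ligands H60c was listed at 0 in every library, while Ulbp1, the gene of MULT1, averaged 3.17 ± 1.84 FPKM in Id2KO, 4.23 ± 1.602 FPKM in Tcf1KO, 3.08 ± 1.47 FPKM in DKO and 3.97 ± 1.29 FPKM in Ctrl libraries.

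Other lectin receptors of the same gene complex gave the calls that the 7 members did not. Of 23 listed genes 20 were tested. In Id2KO against Ctrl 0 rose and 3 fell: Klrg1, a receptor of mature NK cells, with a log2 fold change of -3.20 ± 0.29 (adjusted p = 0.00109 by limma), Klrb1b, of the NKR-P1 family, at -2.66 ± 0.27 (adjusted p = 0.00185), and Klra9, of the Ly49 family, at -1.902 ± 0.27 (adjusted p = 0.0193). In Tcf1KO against Ctrl 0 rose and 0 fell. In DKO against Ctrl 0 rose and 2 fell, Klrg1 at -2.11 ± 0.29 (adjusted p = 0.0298 by limma) and Klra4, of the Ly49 family, at -1.86 ± 0.28 (adjusted p = 0.0416). Klrb1b rose in DKO against Id2KO by 2.18 ± 0.27 (adjusted p = 0.0121 by limma), and Klrg1 fell in DKO against Tcf1KO, at -2.66 ± 0.29 (adjusted p = 0.0109). Klrg1 averaged 1.86 ± 1.13 FPKM in Id2KO, 35.7 ± 6.78 FPKM in Tcf1KO, 4.73 ± 0.311 FPKM in DKO and 24.3 ± 5.78 FPKM in Ctrl libraries. The tested genes of this list had a median log2 fold change of -0.19 for Id2KO, -0.27 for Tcf1KO and -0.40 for DKO against Ctrl, beside -0.22, -0.39 and -0.42 for the 7 members. The Id2KO calls of Klrg1 and Klrb1b were each kept in 24 of 25 other settings and lost in a fit of only the compared groups (adjusted p = 0.0681 and 0.0718 by limma). The call of Klra9 was lost without the second Id2KO, the first Ctrl or the second Ctrl library, with adjusted p by limma of 0.071 to 0.0961, and also with no filter (0.0511), only the compared groups (0.213), the 3 libraries of lowest weight left out (0.0994) and the score of other lineages as a term (0.0631). Both DKO calls against Ctrl were lost without any 1 of the DKO or Ctrl libraries; the call of Klrg1 was also lost without the second or the third Tcf1KO library, and that of Klra4 without the first Id2KO or the first or second Tcf1KO library. Adjusted p by limma then reached 0.13 for Klrg1 and 0.164 for Klra4. Both were also lost with no filter, only the compared groups, or the 3 libraries of lowest weight left out, and that of Klrg1 with a pseudocount of 0.1 (adjusted p = 0.0791) and with voom (0.051). The call of Klrb1b in DKO against Id2KO was lost without the second Id2KO or the second DKO library (adjusted p = 0.0703 and 0.0662 by limma), with only the compared groups (0.233) and without the 3 libraries of lowest weight (0.0618). That of Klrg1 in DKO against Tcf1KO was lost without any 1 of the Tcf1KO libraries or without the second or the third DKO library, with adjusted p by limma of 0.0573 to 0.0775, and with a pseudocount of 0.1 (0.0599). The Ly49 genes are near copies of one another, and their levels are uncertain for the same reason as those of the Klrc genes.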

How the data were processed

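RNA of sorted bone marrow NK cells was measured in 12 libraries, 4 groups of 3. The authors' deposited FPKM, 1 value per Ensembl gene and library, had been made, per the submitters' processing notes, with Trimmomatic 0.33, TopHat2 2.1.0, HTSeq 0.6.1 and edgeR on mm10; per the labels' protocols, libraries came from the Nugen Ovation Ultralow kit and were read for 76 cycles. The labels describe the samples of a genotype as independent, without naming animals or litters. No column of the table was left unused. Symbols came from GENCODE M21, which named 32919 of 37991 identifiers.

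The 12384 genes that reached an FPKM of 1 in 3 or more libraries were fitted on log2(FPKM + 1) in R 4.3.3 with lmFit, contrasts.fit and eBayes (variance trend) of limma 3.58.1, with group as the term, all 12 libraries together and 8 residual degrees of freedom. Tests were two-sided, with Benjamini-Hochberg adjustment over all tested genes of a contrast and a threshold of 0.05. The Klrc1 share was compared by an exact permutation test (scipy 1.17.1). Plots were drawn with matplotlib 3.10.9, and tables made with numpy 2.4.6 and pandas 2.3.3 under Python 3.11.15. Whole reads were recovered for 23700 of 23707 genes above 0 (99.97%), within 0.001 to 0.05 of a whole read, and voom on them was an alternative. The pipeline was tested on simulated data. Read totals were 13977524 to 20209587. At its lowest read number a member's counting CV was 1.07% to 3.16%, and 7.43% to 8.87% for Klri1, below the spread between libraries in every group.

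The named genes were the 7 members, Klrc3, the 3 tested genes most correlated with each member, and, from each gene list, genes ranking among its first 3 by p in any contrast. Not all of those list genes are printed: those given, the values of Ncr1 and Eomes, Hcst, H2-T23, Ulbp1, H60c and both ratios were chosen after their values were seen. A gene that the correlation rule names is not reported here. The members, gene lists and tests were chosen with earlier results of these data known. Settings varied were the pseudocount (0.1, 0.5), the filter (none, FPKM 5), quantile normalization, median scaling, array weights, no variance trend, a replicate block, only the compared groups in the fit, voom and each library left out. Leaving out the 3 libraries of lowest array weight, and a score of other blood lineages as a term, were added after seeing the data.

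The titles number replicates 1 to 3 in each group. Of 18 pairs of libraries with the same number, 6 had deviations from the group means correlated over 0.1 (r from -0.14 to 0.27). The highest were those of replicate 3 of Tcf1KO with DKO (0.27) and with Ctrl (0.24). Pairs of the same number with an Id2KO library ran from -0.14 to 0.031. Libraries of different groups and different numbers gave r from -0.23 to 0.17. These values do not decide whether the numbers pair the samples, and the reported fit has no block.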

Additional observations from a re-analysis of the deposited data

How the results depend on the processing

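The count of members past the threshold in DKO against Ctrl was 0 and became 1, Klri2, with a filter at FPKM 5 (adjusted p by limma 0.0462), median scaling (0.0425), voom on recovered reads (0.0216), and the other-lineage score as a term (0.0404). Leaving out each library in turn gave counts of 0 to 1, the 1 being without Id2KO replicate 3 (adjusted p = 0.0403 by limma). In the other 5 contrasts the count was 0 under every setting run. No paired analysis is given as a result because whether the replicate numbers pair the samples is not known here. With the replicate block the count of members called was 0 in each contrast. The calls over all genes were 22, 0, 19, 15, 15 and 0, against 22, 0, 18, 15, 7 and 0 without the block. They are listed first for the 3 knockouts set against Ctrl, then DKO set against Id2KO and against Tcf1KO, then the interaction.

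Of 29 member values under up to 25 settings each, 24 never changed sign. The others were near 0: Klrc2 in Id2KO against Ctrl was -0.14 with the other-lineage score and -0.026 to 0.24 with each library left out; without the 3 libraries of lowest array weight Klrd1 and Klre1 in Id2KO against Ctrl were 0.13 and 0.12 and the Klri2 interaction -0.015. With each library left out Klrd1 and Klre1 in Id2KO against Ctrl ran from -0.24 to 0.037 and -0.45 to 0.027, Klrc2 in DKO against Ctrl from -0.35 to 0.0045, and the Klri2 interaction from -0.082 to 0.23. The Klrc1 share in DKO differed from Ctrl by -1.52 to 1.05 percentage points when libraries were left out. The causes were not tested. Calls over all genes ranged from 2 to 33 in Id2KO against Ctrl, 0 to 7 in Tcf1KO against Ctrl and 0 to 27 in DKO against Ctrl. At 127 reads, its fewest in any library, Klri1 had a counting CV of 8.87%, against a spread of 28.0% between the DKO libraries.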
